A study of Oryctolagus cuniculus with 6 samples.

Results

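The splicing factor genes of primary limbal stem cells (LSCs) were examined in RNA-seq libraries of cells that grew out of rabbit limbal explants. They were chosen by name alone as the genes whose symbol begins with SRSF, HNRNP, SF3A or SF3B, SNRP or PRPF in the count table, which gave 64 of its 22190 genes. These were 11 SRSF, 20 HNRNP, 8 SF3, 12 SNRP and 13 PRPF genes. In the fresh group (3 libraries), explants were cultured from untreated rabbit corneas. In the preconditioned group (3 libraries), the corneas had first been held in liquid nitrogen for 7 days in a cryomedium with serum, dimethyl sulfoxide and 10 ng/mL IL-1β, an inflammatory cytokine. Freezing and IL-1β came together in every preconditioned library, so that their shares in a difference cannot be told apart. The labels give neither strain, age nor sex, and they do not state which animal each library came from, so that p values measure the spread between these libraries, which may in part be technical. Genome positions are not given because the sources used here do not name the build of the counts.

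Splicing removes introns from pre-mRNA and is carried out by the spliceosome, which is built from small nuclear ribonucleoproteins (snRNPs) and many other proteins. The SNRP genes encode proteins of the snRNPs, among them the Sm proteins that form a ring on the small nuclear RNAs. The SF3 genes encode subunits of the SF3a and SF3b complexes of the U2 snRNP, which recognises the branch point. The PRPF genes encode pre-mRNA processing factors, several of which belong to the particle of the U4, U6 and U5 snRNPs (tri-snRNP) that joins before catalysis. The SRSF proteins carry serine and arginine repeats, bind exons and mostly favour their inclusion, whereas the hnRNP proteins coat nascent transcripts and often act against nearby splice sites. Many SRSF and some HNRNP genes regulate their own mRNA through unproductive splicing, which counts per gene do not show.

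Each library had 31952352 to 34327534 counts on genes, and the 64 genes together held 1.17% to 1.23% of the counts in the fresh libraries and 1.09%, 0.873% and 0.890% in preconditioned replicates 1, 2 and 3. All 64 genes passed the filter on low counts, and none had a library with 3 counts or fewer. Epithelial markers were present in every library, with KRT5 at 7337 to 11740.2 CPM and the stem cell factor TP63 at 112 to 246 CPM (counts relative to the library total, scaled by TMM between libraries), while KRT14 and KRT12 were not analysed here. Preconditioned replicate 1 stood apart from the other preconditioned libraries, and values without it are given for the genes whose call it changes. It was singled out after the values were seen, so that p values without it are not independent support. In bulk samples, a change in the makeup of the cells and a change of RNA per cell cannot be told apart.

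Levels of different genes were compared per gene length, in FPKM, which are not scaled by TMM, so that differences between the groups are given in CPM. By mean FPKM over all libraries, HNRNPAB, HNRNPK and HNRNPA1 were the most abundant of the 64 genes. HNRNPAB, an A/B-type hnRNP, had 338 ± 21.9 FPKM when fresh and 255 ± 67.2 FPKM when preconditioned (SD, n = 3 each). HNRNPK, which binds C-rich RNA, had 291 ± 10.6 FPKM when fresh and 247 ± 30.9 FPKM when preconditioned (SD, n = 3 each), and HNRNPA1, which opposes exon inclusion at many sites, had 286 ± 29.7 FPKM when fresh and 231 ± 7.01 FPKM when preconditioned (SD, n = 3 each). In the fresh libraries every HNRNPAB value lay above those of the other 2 genes, though by less than 1 FPKM over the highest HNRNPA1 value, while HNRNPK and HNRNPA1 overlapped, and in the preconditioned libraries all 3 genes overlapped. SNRPD2, a protein of the Sm ring, led the SNRP genes at 224 ± 2.24 FPKM when fresh and 238 ± 37 FPKM when preconditioned (SD, n = 3 each). Its mean exceeded that of HNRNPA1 in the preconditioned group, where the libraries of both genes overlapped. Its level was above that of SNRPD3, the next in order, at 141 ± 3.29 FPKM when fresh and 123 ± 36 FPKM when preconditioned (SD, n = 3 each). Among SRSF genes, SRSF3 and SRSF9 were highest in the fresh libraries, with 124 ± 5.45 FPKM when fresh and 89.6 ± 38 FPKM when preconditioned (SD, n = 3 each) and 106 ± 3.09 FPKM when fresh and 84.5 ± 6.28 FPKM when preconditioned (SD, n = 3 each), and in the preconditioned libraries SRSF5, at 88.2 ± 19.1 FPKM (SD, n = 3), lay between them, with differences smaller than the spread. SF3B6 led the SF3 genes, and PRPF8 and PRPF31 led the PRPF genes with 53 ± 3.61 and 44.4 ± 1.57 FPKM (SD, n = 3) in the fresh group. The least expressed members were SRSF12, with 0.227 ± 0.0333 FPKM in the fresh group, and PRPF40B, with 0.602 ± 0.18 FPKM (SD, n = 3 each).

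**Figure D1:**
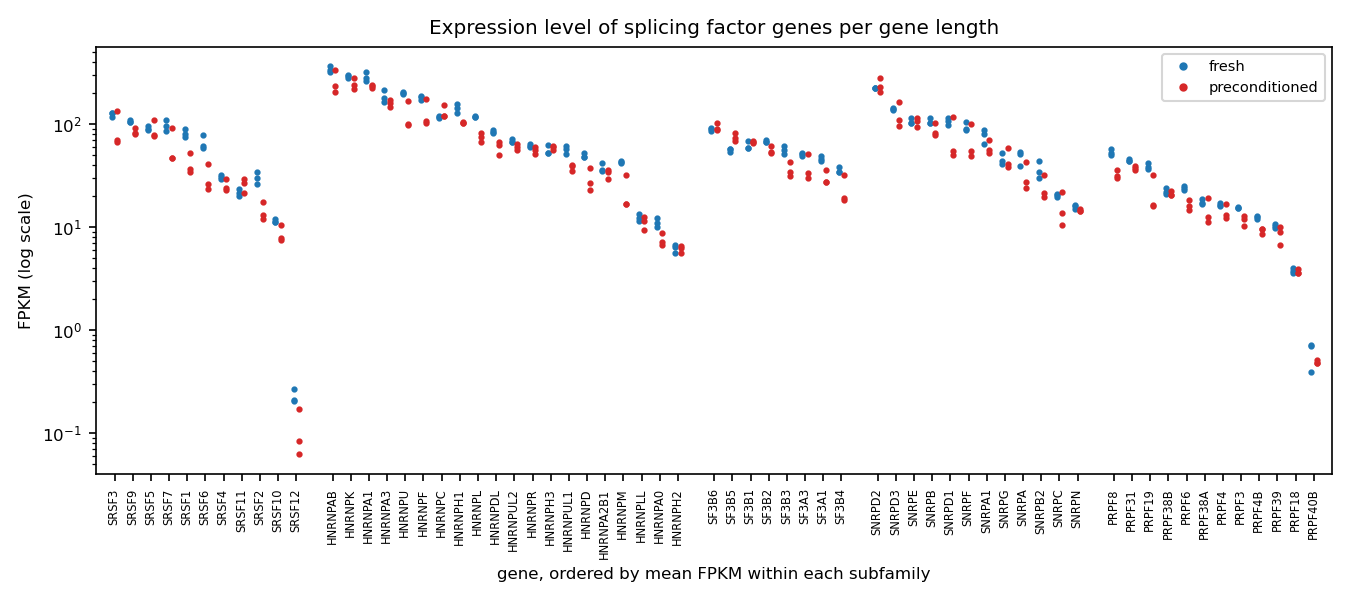
Expression per gene length of 63 of the 64 splicing factor genes in FPKM (log scale), with the 3 fresh libraries in blue and the 3 preconditioned libraries in red for each gene, ordered by mean within each subfamily. Most genes lie above 3 FPKM in every library, whereas SRSF12 and PRPF40B lie below 1 FPKM in every library.

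The splicing factor genes were lower in the preconditioned group more often than not, by amounts that were mostly small. At an adjusted p of at most 0.05 from edgeR's quasi-likelihood test over all genes, SRSF1, SRSF2 and PRPF8 fell and SF3B5 rose, with log2 fold changes of −0.83, −0.92, −0.55 and 0.57. The 3 lower genes were 4.69% of the 64, where 2.2% of the 15029 genes tested were lower by this rule, and the 1 higher gene was 1.56%, where 2.88% of all genes were higher. Scaling by library size alone, without TMM, let 12 of the 64 genes pass as lower (18.8%, against 6.97% of all genes) and none as higher (against 1.95%), and of these SRSF2 and SRSF6 reached a log2 fold change of −1 (3.12%, against 2.81% of all genes as lower and 0.945% as higher). At an adjusted p of at most 0.1 with TMM, 11 genes were lower (17.2%, against 9% of all genes) and 1 was higher (1.56%, against 9.96%). At an adjusted p of at most 0.05 with TMM, none of the 64 also reached an absolute log2 fold change of 1, the cutoff used for these data, whereas 1.2% of all genes did so as lower and 1.08% as higher. At an unadjusted p of at most 0.05, 17 of the 64 genes were lower (26.6%, against 15.1% of all genes) and 4 were higher (6.25%, against 15.5%). The DESeq2 Wald test gave 10 lower genes and 1 higher gene at an adjusted p of at most 0.05, where 9.43% and 9.68% of all genes passed, and none at both cutoffs, where 4.17% and 3.62% did. When any library other than preconditioned replicate 1 was left out, none of the 64 was called. In these settings, by adjusted p alone, 0.0584% to 0.195% of all genes were called as lower and 0.0324% to 0.351% as higher. With shares this low, hardly any call could be found among 64 genes, so that this result is not particular to them.

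The log2 fold change was negative for 47 of the 64 genes (73.4%), compared with 49.5% of all genes tested, and the median was −0.19 over the 64 genes and 0.0071 over all genes. All 3 preconditioned libraries lay below all 3 fresh libraries for 21 of the 64 genes (32.8%, against 18.8% of all genes) and above them for 6 (9.38%, against 17.9%). Scaling by library size alone moved the median of all genes to −0.16. It turned 9 of the 17 positive values negative, among them those of HNRNPH2, HNRNPLL, HNRNPR, PRPF18, PRPF38B, SNRPE, SNRPN and SRSF5. The number below the median of all genes stayed at 47, which says little, since this scaling moves all genes by nearly the same amount. With this scaling the groups were separate for 29 lower genes (28.3% of all genes were) and 2 higher genes (10.5% of all genes). In log2 CPM the 64 genes had a median SD between libraries of 0.085 (fresh) and 0.19 (preconditioned), compared with 0.196 and 0.286 over all genes. This comparison was not matched for expression level, on which such an SD depends.

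**Figure D2:**
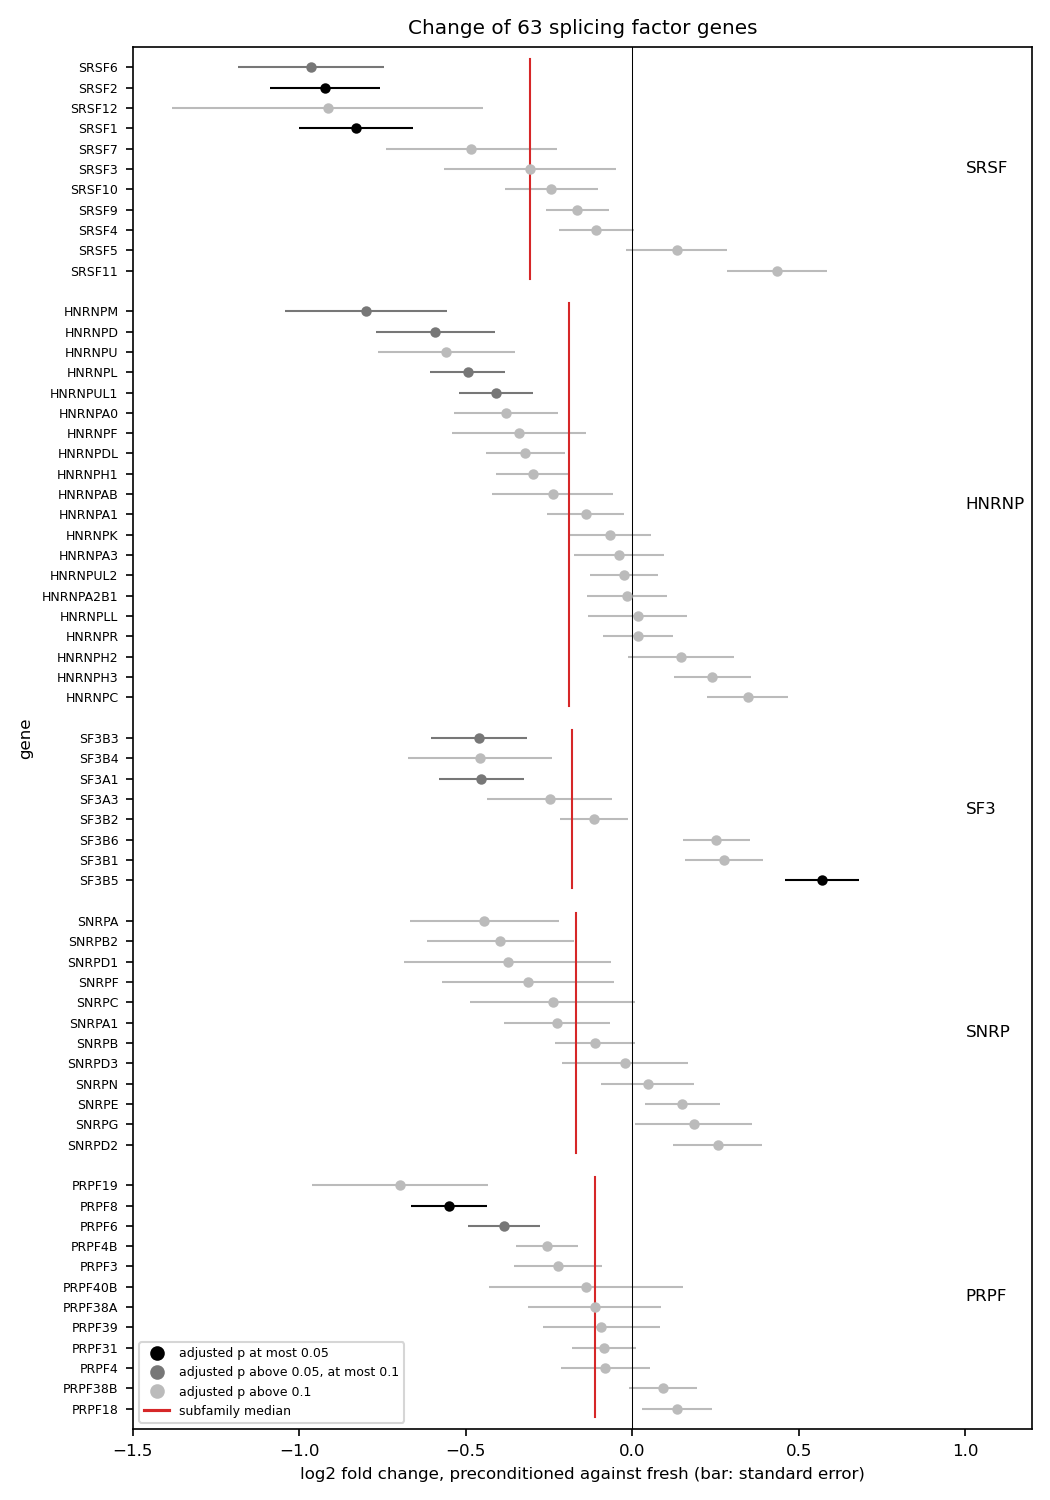
Log2 fold change of 63 of the 64 genes in the preconditioned against the fresh group, with the standard error as a bar and the shade giving the adjusted p. The 4 black points are SRSF1, SRSF2 and PRPF8 on the left of 0 and SF3B5 on the right, and the red lines mark subfamily medians over all members, from −0.31 (SRSF) to −0.11 (PRPF).

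SRSF genes had the lowest median log2 fold change of the 5 subfamilies, −0.31, and 9 of 11 were below 0. This order turned without preconditioned replicate 3, where the median was −0.15 for SRSF and −0.16 for PRPF. The fall was seen in SRSF1 and SRSF2, both of which bind exonic enhancers and recruit the early spliceosome. SRSF1 (NCBI gene 100357422) had 214, 198 and 238 CPM in the fresh libraries and 153, 104 and 108 CPM in the preconditioned libraries. Every preconditioned library was below every fresh library, and replicate 1 was the highest of the preconditioned ones. The group means were 217 ± 19.8 and 122 ± 26.9 CPM (SD, n = 3 per group), a log2 fold change of −0.83 ± 0.17 (SE) at an adjusted p of 0.045. SRSF2 (NCBI gene 103345768), which is concentrated in nuclear speckles, had 74.1, 83.7 and 94.7 CPM in the fresh libraries and 53.5, 42.5 and 37.2 CPM in the preconditioned libraries. These groups did not overlap either, with a log2 fold change of −0.92 ± 0.17 (SE) at an adjusted p of 0.039. Without preconditioned replicate 1, the values were −1.04 for SRSF1 and −1.09 for SRSF2, and both were still called (adjusted p = 0.0044 and 0.0058 from edgeR). Leaving out each of the other 5 libraries in turn gave −0.89 to −0.73 with adjusted p values of 0.11 to 0.16 for SRSF1 and −1.01 to −0.81 with adjusted p values of 0.089 to 0.15 for SRSF2, so that neither was called.

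SRSF6, an SR protein that acts on alternative exons, had the most negative value of all 64 genes and narrowly missed the threshold. It had 97.1, 102 and 129.9 CPM in the fresh libraries and 74.7, 45 and 48.7 CPM in the preconditioned libraries, again without overlap, and a log2 fold change of −0.96 ± 0.22 (SE) at an adjusted p of 0.051. SRSF6 passed the threshold in 7 of 15 alternative settings, among them the DESeq2 Wald test (adjusted p = 0.0024). SRSF12, a little expressed member, had 1.8, 1.74 and 2.24 CPM in the fresh libraries and 0.578, 1.69 and 0.79 CPM in the preconditioned libraries and a wide error, with a log2 fold change of −0.92 ± 0.47 (SE) at an adjusted p of 0.23.

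SRSF3 and SRSF7, short SR proteins that also take part in mRNA export, had a different arrangement of libraries. SRSF3 had 254, 234 and 252 CPM in the fresh libraries and 291, 159 and 146 CPM in the preconditioned libraries. The first preconditioned library was above all fresh libraries and the other 2 were far below them, so that the spread exceeded the difference of the means (log2 fold change −0.31 ± 0.26 (SE) at an adjusted p of 0.45). SRSF7 had 99.2, 89.1 and 111 CPM in the fresh libraries and 103, 56.4 and 54.4 CPM in the preconditioned libraries, with the first preconditioned library inside the fresh range. Without that library, the log2 fold changes were −0.70 for SRSF3 and −0.86 for SRSF7 (adjusted p = 0.0078 and 0.0073 from edgeR). SRSF7 and the other members named for this arrangement were chosen after their values were seen. Leaving out the first preconditioned library narrows their spread by the way they were chosen, so that low p values without it are no support.

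SRSF11 and SRSF5 were the only SRSF genes with a positive value. SRSF11, an SR-related protein, had 178, 153 and 160.0 CPM in the fresh libraries and 179, 235 and 250.5 CPM in the preconditioned libraries. Its groups were separated by less than 1 CPM between the first preconditioned and the first fresh library, and the log2 fold change of 0.43 ± 0.15 (SE) at an adjusted p of 0.11 did not pass, while without preconditioned replicate 1 it was 0.56 (adjusted p = 0.015 from edgeR). SRSF5 had 165, 149.8 and 154 CPM in the fresh libraries and 209.8, 154 and 151 CPM in the preconditioned libraries and a log2 fold change of 0.13 ± 0.15 (SE) at an adjusted p of 0.58, with a 95% interval of −0.22 to 0.49. SRSF9 was lower in every preconditioned library by a small amount, from 114 ± 2.83 to 102 ± 5.41 CPM (SD, n = 3 each), with an adjusted p of 0.28. The remaining SRSF4 and SRSF10 had log2 fold changes of −0.11 and −0.24, neither called.

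**Figure D3:**
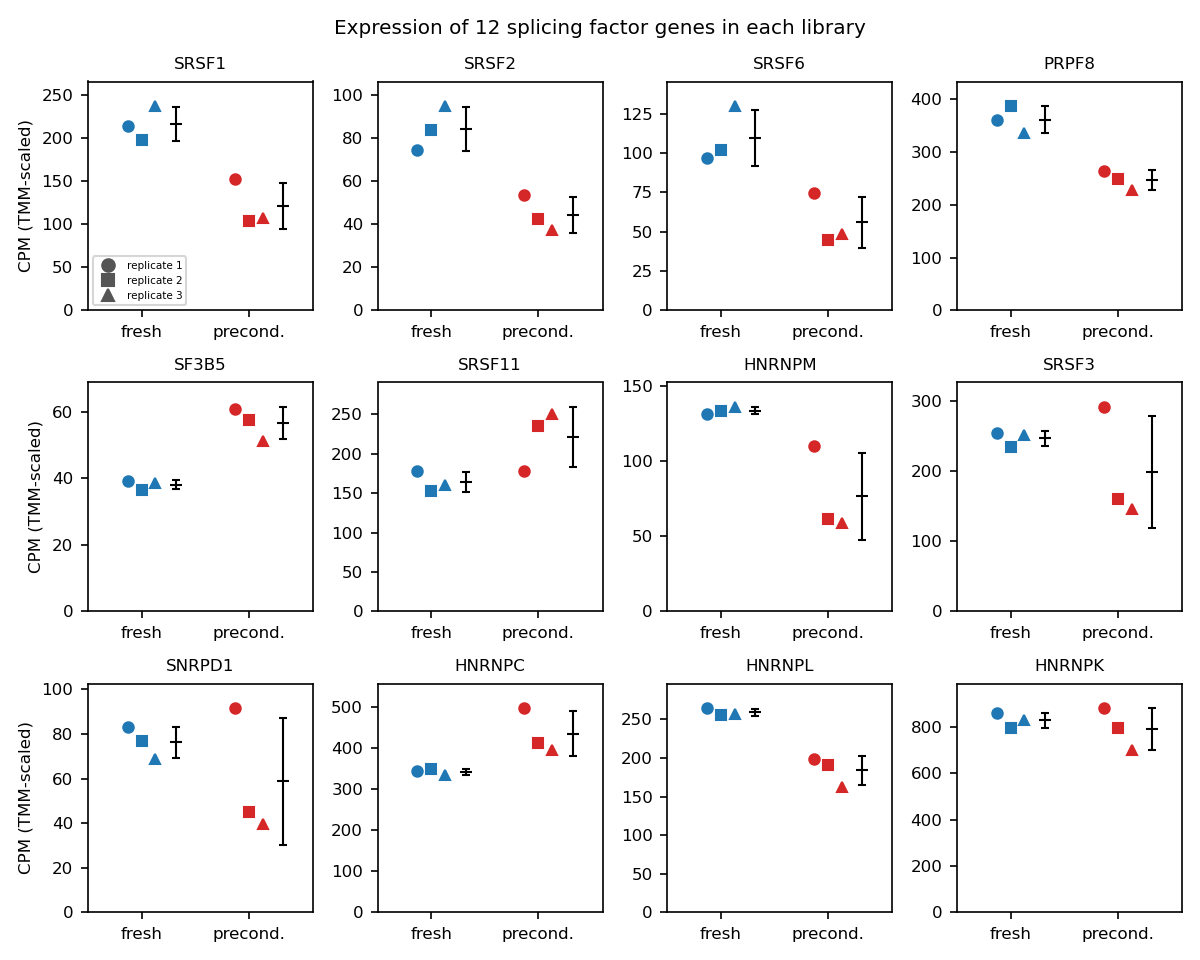
TMM-scaled CPM of 12 splicing factor genes in each library (axes start at 0), with 1 symbol per replicate number and the mean ± SD of each group as black bars. SRSF1, SRSF2, SRSF6, PRPF8, HNRNPM and HNRNPL lie lower and SF3B5, SRSF11 and HNRNPC higher in all 3 preconditioned libraries, while in SRSF3, SNRPD1 and HNRNPK the first preconditioned library lies above the fresh ones and the other 2 lie below, by little in HNRNPK.

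The 20 HNRNP genes had a median log2 fold change of −0.19. None passed at an adjusted p of at most 0.05, 8 were lower and 1 higher at an unadjusted p of at most 0.05 (40% and 5%, against 15.1% and 15.5% of all genes), and 9 lower and 2 higher genes had separate groups (45% and 10%, against 18.8% and 17.9%). HNRNPM, which represses or promotes exons through GU-rich sites, had the most negative value. It had 131, 134 and 136 CPM in the fresh libraries and 110.1, 61.2 and 58.8 CPM in the preconditioned libraries. The 3 fresh libraries were close to each other, and the preconditioned libraries were all lower but far apart, with a log2 fold change of −0.80 ± 0.24 (SE) at an adjusted p of 0.084. HNRNPD (also known as AUF1), which binds AU-rich elements and speeds mRNA decay, had 102, 92.9 and 93.1 CPM in the fresh libraries and 80.8, 60.7 and 49.8 CPM in the preconditioned libraries and a log2 fold change of −0.59 ± 0.18 (SE) at an adjusted p of 0.083. Both were called by DESeq2 (adjusted p = 0.024 and 0.040) and without preconditioned replicate 1, where the values were −1.17 and −0.81 (adjusted p = 0.0034 and 0.0082 from edgeR).

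HNRNPL, which binds CA repeats, differed more evenly, with 265, 256 and 257 CPM in the fresh libraries and 198, 191 and 163 CPM in the preconditioned libraries. The largest preconditioned value was well below the smallest fresh value, and the log2 fold change of −0.49 ± 0.11 (SE) at an adjusted p of 0.052 lay just outside the threshold, while DESeq2 called it (adjusted p = 0.0079). HNRNPU, a large nuclear scaffold protein, had 705, 716 and 723 CPM in the fresh libraries and 654, 415 and 387 CPM in the preconditioned libraries, with no overlap but a first preconditioned library close to the fresh ones (log2 fold change −0.56 at an adjusted p of 0.12). HNRNPUL1, a relative of HNRNPU, had a log2 fold change of −0.41 at an adjusted p of 0.069 (DESeq2 adjusted p = 0.039), while HNRNPUL2, also a relative, was at −0.0259 at an adjusted p of 0.89 with a 95% interval of −0.27 to 0.21. HNRNPA0, HNRNPDL and HNRNPH1 were lower in every preconditioned library, with log2 fold changes of −0.38, −0.32 and −0.30 and adjusted p values of 0.15, 0.12 and 0.13. HNRNPL, HNRNPU, HNRNPUL1 and these 3 genes were named after their values were seen.

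The most abundant hnRNP genes had small log2 fold changes that did not pass. HNRNPA1 had 616, 531 and 501 CPM in the fresh libraries and 499, 497 and 499 CPM in the preconditioned libraries. The 3 preconditioned libraries were nearly equal and just below the lowest fresh one, and the log2 fold change was −0.14 ± 0.12 (SE) at an adjusted p of 0.44. HNRNPK had 862, 798 and 831 CPM in the fresh libraries and 882, 795 and 702 CPM in the preconditioned libraries, with the first preconditioned library above and the other 2 below the fresh range, and a 95% interval of −0.36 to 0.22 around a log2 fold change of −0.067. HNRNPA2B1, a close relative of HNRNPA1, was at −0.0153 with an interval of −0.30 to 0.27. HNRNPAB had 542, 559.5 and 608 CPM in the fresh libraries and 613, 455 and 380.3 CPM in the preconditioned libraries, and its first preconditioned library was above all fresh ones while the other 2 were below (log2 fold change −0.24 at an adjusted p of 0.4). Without that library the value was −0.46 (adjusted p = 0.042 from edgeR).

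HNRNPC and HNRNPH3 lay higher in all 3 preconditioned libraries. HNRNPC, which binds U-rich tracts and packages nascent transcripts, had 344, 349 and 334 CPM in the fresh libraries and 498, 412 and 396 CPM in the preconditioned libraries. Its fresh libraries were close together, and the first preconditioned library was the highest, with a log2 fold change of 0.35 ± 0.12 (SE) at an adjusted p of 0.11. HNRNPH3 had 319, 265 and 268 CPM in the fresh libraries and 333, 328 and 346 CPM in the preconditioned libraries, with a log2 fold change of 0.24 ± 0.12 (SE) at an adjusted p of 0.2. Neither gene passed the threshold with any of the alternatives. Of the remaining members, HNRNPF and HNRNPA3 were below 0 and HNRNPLL, HNRNPR and HNRNPH2 above it, none called.

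Within the SF3 genes, subunits of the same complex differed in direction. Of the 8 genes, 5 had a negative and 3 a positive log2 fold change, and the median was −0.18. SF3B5, the smallest subunit of SF3b, rose. SF3B5 (NCBI gene 100354441) had 39.1, 36.4 and 38.7 CPM in the fresh libraries and 60.9, 57.4 and 51.3 CPM in the preconditioned libraries. All preconditioned libraries were above all fresh ones, with means of 38.1 ± 1.44 and 56.5 ± 4.84 CPM (SD, n = 3 per group) and a log2 fold change of 0.57 ± 0.11 (SE) at an adjusted p of 0.041. With library size alone the value was 0.40 and no longer passed (adjusted p = 0.069 from edgeR), and it was 0.50 without preconditioned replicate 1 (adjusted p = 0.018), whereas leaving out each of the other 5 libraries gave 0.54 to 0.64 with adjusted p values of 0.078 to 0.16, none of them called.

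SF3B1, the large subunit that holds the branch point helix, had 529.6, 450.2 and 443 CPM in the fresh libraries and 543, 592 and 586 CPM in the preconditioned libraries and lay higher in all preconditioned libraries, although its log2 fold change of 0.28 ± 0.12 (SE) at an adjusted p of 0.17 did not pass. SF3B6, which contacts the branch point adenosine, had 63.5, 59.5 and 63.1 CPM in the fresh libraries and 79.3, 73.4 and 69 CPM in the preconditioned libraries and a log2 fold change of 0.25 ± 0.10 (SE) at an adjusted p of 0.15. In contrast, SF3B3, a scaffold subunit that holds the same complex together, had 230.3, 252 and 207 CPM in the fresh libraries and 194, 164 and 143 CPM in the preconditioned libraries, lower in every preconditioned library, with a log2 fold change of −0.46 ± 0.15 (SE) at an adjusted p of 0.090. SF3B4, which contacts RNA near the branch point, had 49.7, 56 and 49.8 CPM in the fresh libraries and 51.4, 32.1 and 29.6 CPM in the preconditioned libraries. Its first preconditioned library lay inside the fresh range and the other 2 far below it, with log2 fold changes of −0.46 at an adjusted p of 0.2 with all libraries and −0.76 without the first (adjusted p = 0.008 from edgeR). SF3A1, of the SF3a complex, was lower without overlap at −0.45 at an adjusted p of 0.072 (DESeq2 adjusted p = 0.041), and SF3A3 and SF3B2 were at −0.25 at an adjusted p of 0.4 and −0.11 at an adjusted p of 0.47.

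A ratio of 2 genes within a library does not depend on scaling between libraries. The pairs were chosen after the values were seen and were not tested. The log2 ratio of SF3B5 to SF3B3 counts was −2.56, −2.79 and −2.42 in the fresh libraries and −1.67, −1.52 and −1.48 in the preconditioned libraries. It lay higher in each preconditioned library, by 1.03 in the mean. The log2 ratio of SRSF1 to SRSF11 was 0.26, 0.37 and 0.57 in the fresh libraries and −0.23, −1.17 and −1.21 in the preconditioned libraries, so that SRSF1 had more counts than SRSF11 in each fresh library and fewer in each preconditioned one. For HNRNPC to HNRNPL it was 0.38, 0.45 and 0.37 in the fresh libraries and 1.33, 1.11 and 1.28 in the preconditioned libraries, again without overlap. By contrast, the ratio of SNRPD1 to SNRPD2, which sit in the same Sm ring, was −0.74, −0.84 and −0.97 in the fresh libraries and −0.59, −1.86 and −2.26 in the preconditioned libraries, with the first preconditioned library above the fresh range and the other 2 below it.

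For SNRP genes, the groups overlapped in all 12 cases, where 18.8% of all genes were separate and lower and 17.9% separate and higher. None passed at an unadjusted p of at most 0.05, where 15.1% of all genes were lower and 15.5% higher. The most negative values were those of SNRPA and SNRPB2. SNRPA, which binds a stem loop of U1 RNA, had 56.4, 54.2 and 41.1 CPM in the fresh libraries and 49.5, 29.6 and 32.3 CPM in the preconditioned libraries, and SNRPB2, its counterpart on U2 RNA, had 31.3, 35.7 and 45 CPM in the fresh libraries and 36.9, 23.5 and 24.7 CPM in the preconditioned libraries. In both genes the first preconditioned library was inside the fresh range and the other 2 were below it, with log2 fold changes of −0.44 at an adjusted p of 0.22 and −0.40 at an adjusted p of 0.26. Without the first preconditioned library both were called, at −0.72 and −0.64 (adjusted p = 0.024 and 0.040 from edgeR). SNRPC of the U1 snRNP and SNRPA1 of the U2 snRNP were at −0.24 and −0.23, less negative than SNRPD1 and SNRPF of the Sm ring.

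The 8 genes of the Sm ring had log2 fold changes on both sides of 0, with 4 negative, 4 positive and a median of 0.012. This balance depended on the setting, with 6 negative and a median of −0.16 with library size alone, and 5 negative and a median of −0.12 without preconditioned replicate 1. It went the other way without preconditioned replicate 2 or 3, with 3 negative and 5 positive each and medians of 0.019 and 0.077. SNRPD1 had 82.9, 77 and 68.9 CPM in the fresh libraries and 91.6, 45.2 and 39.6 CPM in the preconditioned libraries. As in SRSF3, the first preconditioned library was above all fresh libraries and the other 2 were below them (log2 fold change −0.37 at an adjusted p of 0.45). SNRPF had the same arrangement, with 48.6, 40.7 and 41.3 CPM in the fresh libraries and 50.6, 26.2 and 28.3 CPM in the preconditioned libraries. Without preconditioned replicate 1, both were called, at −0.86 and −0.69 (adjusted p = 0.0075 and 0.013 from edgeR). SNRPD2 went the other way, with 139, 138 and 135 CPM in the fresh libraries and 137, 164 and 189 CPM in the preconditioned libraries and a log2 fold change of 0.26 ± 0.13 (SE) at an adjusted p of 0.24, and its first preconditioned library was inside the fresh range. SNRPD3 was at −0.0224 (95% interval −0.46 to 0.42), SNRPG at 0.18, SNRPE at 0.15 and SNRPB at −0.11. SNRPN, an imprinted gene whose protein can take the place of the SNRPB product, had 14.3, 15.2 and 15.5 CPM in the fresh libraries and 14.8, 16.4 and 15.2 CPM in the preconditioned libraries with a log2 fold change of 0.0458 and a 95% interval of −0.28 to 0.38.

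Among the 13 PRPF genes, 10 had a negative log2 fold change and the median was −0.11. PRPF8, the core protein of the U5 snRNP that holds the catalytic centre of the spliceosome, fell. PRPF8 (NCBI gene 100357344) had 361, 387 and 336 CPM in the fresh libraries and 264, 248 and 227 CPM in the preconditioned libraries. The groups were well apart, with means of 361 ± 25.3 and 247 ± 18.6 CPM (SD, n = 3 per group) and a log2 fold change of −0.55 ± 0.11 (SE) at an adjusted p of 0.045. Without preconditioned replicate 1 it was −0.61 (adjusted p = 0.014 from edgeR), and leaving out each of the other 5 libraries gave −0.60 to −0.49 with adjusted p values of 0.1 to 0.16, none of them called. The 5 tri-snRNP genes in the list, PRPF3, PRPF4, PRPF6, PRPF8 and PRPF31, were all below 0, with a median of −0.22, and 3 of them had separate groups, where 18.8% of all genes were lower in this way. PRPF6, a bridge between U5 and the other snRNPs, had 73, 79.1 and 76.7 CPM in the fresh libraries and 64.1, 53.7 and 57.3 CPM in the preconditioned libraries (log2 fold change −0.39 at an adjusted p of 0.072, DESeq2 adjusted p = 0.050), while PRPF31, a scaffold of the U4 snRNP, had 73.6, 77.6 and 72.6 CPM in the fresh libraries and 71.5, 72.8 and 66.4 CPM in the preconditioned libraries and a log2 fold change of −0.0867 at an adjusted p of 0.57.

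PRPF19, a ubiquitin ligase that heads the complex joining the spliceosome at its activation, had 74.1, 85 and 77.5 CPM in the fresh libraries and 71.5, 38.3 and 36 CPM in the preconditioned libraries. The first preconditioned library was only slightly below the fresh ones and the other 2 were far below them, with a log2 fold change of −0.70 ± 0.26 (SE) at an adjusted p of 0.13. Without that library it was −1.10 (adjusted p = 0.004 from edgeR). PRPF4B, a nuclear kinase, was lower in every preconditioned library at −0.26 at an adjusted p of 0.12. PRPF18 and PRPF38B had the most positive values, 0.13 and 0.0917, with 95% intervals of −0.11 to 0.38 and −0.15 to 0.33, and both turned negative with library size alone. PRPF38A, PRPF39 and PRPF40B were at −0.11, −0.0934 and −0.14, none called.

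The libraries of the preconditioned group differed in how far they departed from the fresh group. Relative to the mean of the fresh libraries, the median log2 ratio of the 64 genes was 0.00277 in preconditioned replicate 1, −0.22 in replicate 2 and −0.26 in replicate 3. For SRSF genes these medians were 0.0107, −0.33 and −0.75, for SNRP genes 0.12, −0.29 and −0.35, and for SF3 genes 0.0635, −0.27 and −0.39. HNRNP genes were at −0.092, −0.20 and −0.26, and PRPF genes were at −0.14, −0.0807 and −0.19, where replicate 1 was further from the fresh mean than replicate 2. In replicates 2 and 3, 44 and 43 of the 64 genes (68.8% and 67.2%) were below all fresh libraries, compared with 38.7% and 38.6% of all genes tested, and 10 and 12 (15.6% and 18.8%) were above them, compared with 37.3% and 37.5%. In replicate 1, 25 genes (39.1%) were below and 23 (35.9%) above all fresh libraries, compared with 33.3% and 32.2% of all genes.

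Replicates 2 and 3 but not replicate 1 were below all fresh libraries in 20 of the 64 genes (31.2%), compared with 11.4% of all genes. By subfamily these were 8 of 12 SNRP, 4 of 11 SRSF, 3 of 8 SF3, 3 of 20 HNRNP and 2 of 13 PRPF genes. The opposite arrangement was found for PRPF18 and SNRPD2 (3.12%, against 10.5% of all genes). Both were noticed in the data and counted afterwards. Summed CPM of the SRSF genes was 1350.1, 1273 and 1410.5 in the fresh libraries and 1328, 1024 and 1017 in the preconditioned libraries, and that of the SNRP genes was 864, 809 and 829 in the fresh libraries and 927, 721 and 735 in the preconditioned libraries. For SF3 genes the sum was 1305, 1263 and 1193 in the fresh libraries and 1315, 1238 and 1182 in the preconditioned libraries, with overlapping groups, and for PRPF genes it was 1194, 1190.4 and 1143 in the fresh libraries and 1064, 966 and 953 in the preconditioned libraries, where all preconditioned libraries were lower. Summed CPM of the HNRNP genes was 6941, 6473 and 6457 in the fresh libraries and 6621, 5611 and 5481 in the preconditioned libraries, where the first preconditioned library lay inside the fresh range.

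**Figure D4:**
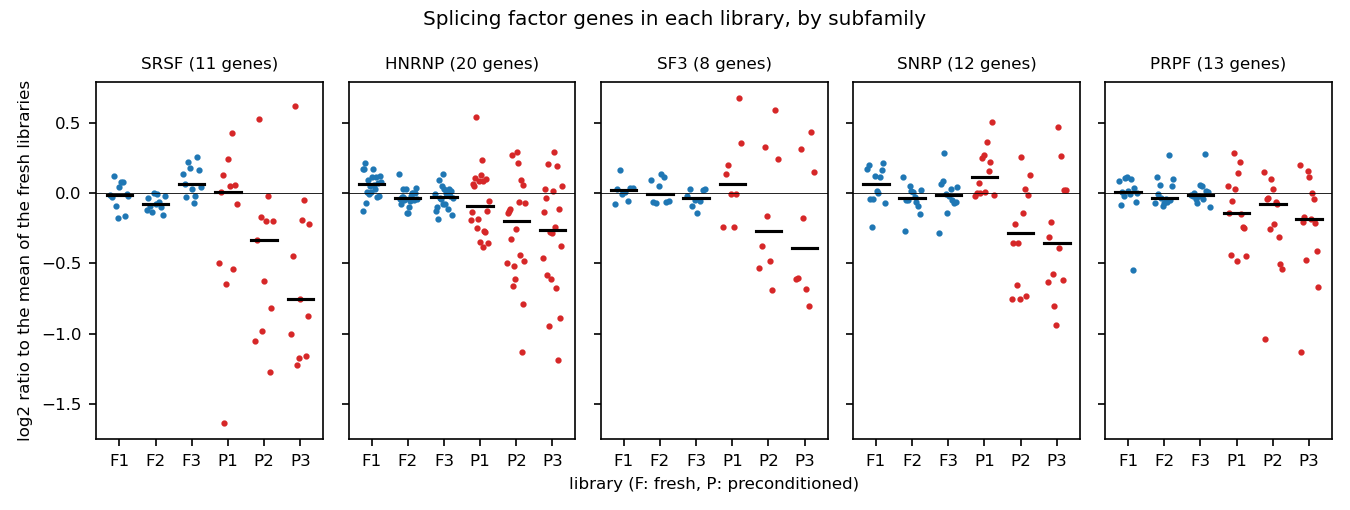
Log2 ratio of each gene to the mean of the fresh libraries, by library and subfamily, with F1 to F3 the fresh and P1 to P3 the preconditioned libraries and black lines the medians. In the SRSF, SF3 and SNRP panels the median of P1 lies within 0.12 of 0, and those of P2 and P3 lie between −0.27 and −0.75.

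Without preconditioned replicate 1, 26 of the 64 genes were lower (40.6%, against 13.9% of all genes) and 3 were higher (4.69%, against 11.2%) at an adjusted p of at most 0.05 from edgeR. The lower genes comprised 6 SRSF, 8 HNRNP, 4 SF3, 5 SNRP and 3 PRPF genes, and the higher genes were SF3B5, SNRPD2 and SRSF11. Among lower genes whose values without this library are not given above, SRSF6 was at −1.24, SRSF10 at −0.40, HNRNPU at −0.84, HNRNPF at −0.62, HNRNPL at −0.56, HNRNPUL1 at −0.45, HNRNPDL at −0.41, SF3A1 at −0.58, SF3A3 at −0.50, SF3B3 at −0.59, PRPF6 at −0.47 and SNRPC at −0.57, and SNRPD2 was at 0.35 among the higher genes. Of genes that were not called, SNRPD3 moved to −0.27 and PRPF38A to −0.37, and SRSF5, SNRPG, HNRNPR and PRPF39 changed sign, to −0.0495, −0.0141, −0.0366 and 0.059. Of the called genes, HNRNPM, PRPF19, SRSF1, SRSF2 and SRSF6 also reached a log2 fold change of −1 (7.81%, against 6.01% of all genes), and none reached 1 (against 3.98%). When any other library was left out, none of the 64 passed, and over all genes 5 to 54 then passed in each direction.

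Many rabbit genes without a symbol are described as copies of these factors, and reads of near-identical copies could have been split or dropped in the authors' counting. The table held 48 such genes, of which 32 were tested, and 33 of the 48 were described as hnRNPs, of which 22 were tested. For HNRNPA1 there were 10, with together 8.48% to 16.2% of the counts of HNRNPA1 itself. Adding them gave 675, 584 and 549.9 CPM in the fresh libraries and 541, 577 and 557 CPM in the preconditioned libraries, so that the groups overlapped. HNRNPC and HNRNPM kept separate groups, in the same direction, with their copies added. The share was highest for SF3B4, HNRNPA2B1 and HNRNPM, up to 31.5%, 29.4% and 27.8%. Values of members with such copies are uncertain, and these shares do not bound how far, since dropped reads are not seen in them.

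Among the 32 tested copies, 2 passed at an adjusted p of at most 0.05, both lower, where 2.2% of all genes tested were lower and 2.88% higher. LOC100345155, described as hnRNP F-like, had 10.8, 11.6 and 2.05 CPM in the fresh libraries and 0.183, 0.256 and 0.198 CPM in the preconditioned libraries. The third fresh library was far below the other fresh ones, and the log2 fold change was −5.24 ± 0.74 (SE) at an adjusted p of 0.031. LOC100341791, described as similar to small nuclear ribonucleoprotein G, had 3.59, 5.34 and 3.88 CPM in the fresh libraries and 1.34, 0.512 and 0.593 CPM in the preconditioned libraries and a log2 fold change of −2.38 ± 0.45 (SE) at an adjusted p of 0.039. HNRNPF itself was at −0.34 at an adjusted p of 0.29 and SNRPG at 0.18 at an adjusted p of 0.51. Without preconditioned replicate 1 both were called, LOC100345155 at −5.16 and LOC100341791 at −2.96. With any of the other 5 libraries left out, LOC100341791 was not called (lowest adjusted p = 0.095 from edgeR), and LOC100345155 was called only without fresh replicate 3 (adjusted p = 0.0042 from edgeR). Neither copy is counted among the 64 genes.

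Other genes of the splicing pathway were examined in 4 lists drawn from general knowledge. Of 24 genes for Sm-like proteins and snRNP assembly, 23 were tested, with a median log2 fold change of −0.18, and 1 passed at an adjusted p of at most 0.05. This was GEMIN5, which recognises small nuclear RNAs for Sm ring assembly. GEMIN5 had 22.6, 26.5 and 22.5 CPM in the fresh libraries and 12.8, 7.19 and 9.98 CPM in the preconditioned libraries and a log2 fold change of −1.26 ± 0.23 (SE) at an adjusted p of 0.039. PRMT5 and WDR77, which together methylate Sm proteins before assembly, were lower in every preconditioned library at −0.77 at an adjusted p of 0.088 and −1.09 at an adjusted p of 0.076, while the Sm-like LSM4 was higher in every library at 0.57 at an adjusted p of 0.054. These 3 were named after their values were seen.

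Of 49 other splicing regulators, 47 were tested, and 4 fell and none rose at an adjusted p of at most 0.05. PTBP1, a polypyrimidine tract binding repressor, had 232, 242 and 257 CPM in the fresh libraries and 160.2, 138 and 132 CPM in the preconditioned libraries and a log2 fold change of −0.77 ± 0.12 (SE) at an adjusted p of 0.031. SFPQ, a paraspeckle protein, had 212, 231 and 257 CPM in the fresh libraries and 151, 89.7 and 102 CPM in the preconditioned libraries and a log2 fold change of −1.03 ± 0.20 (SE) at an adjusted p of 0.042. PNN, an SR-related protein found at desmosomes and in nuclear speckles, had a log2 fold change of −0.56 ± 0.09 (SE) at an adjusted p of 0.037. The median of this list was −0.19. None of 44 tested genes for other core spliceosome proteins (median −0.18, 31 below 0) and none of 7 tested splicing kinases (median −0.21, 4 below 0) passed. At this threshold, 2.2% of all genes were lower. GEMIN5, PTBP1, SFPQ and PNN were called without preconditioned replicate 1, with log2 fold changes of −1.49, −0.87, −1.29 and −0.59, and none was called when any of the other 5 libraries was left out (lowest adjusted p = 0.090, 0.078, 0.10 and 0.084 from edgeR).

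Proliferation genes moved with the same libraries. All 14 listed genes, among them MKI67, TOP2A and CCNB1, had negative log2 fold changes, with a median of −1.26, although none passed at an adjusted p of at most 0.05. Their summed level was 991 to 1340 CPM in the fresh libraries and 870, 291 and 351 CPM in preconditioned replicates 1, 2 and 3. The median log2 ratio to the fresh mean was −0.41, −2.13 and −1.81 in these 3 libraries, so that replicate 1 was nearest to the fresh group for both these and the 64 splicing factor genes. Their part in the result was not tested.

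**Figure D5:**
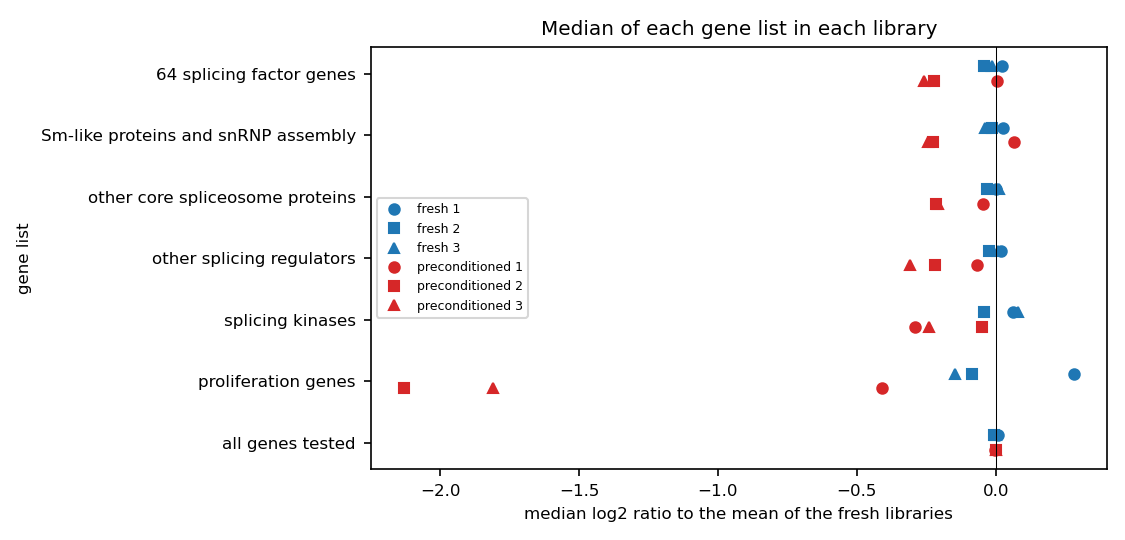
Median log2 ratio of each gene list to the mean of the fresh libraries, with 1 symbol per library (fresh in blue, preconditioned in red). For the 64 splicing factor genes, preconditioned replicates 2 and 3 lie at −0.22 and −0.26 and replicate 1 near 0, and for proliferation genes they lie at −2.13, −1.81 and −0.41.

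Markers of other cells were measured beside these results. The 10 stromal fibroblast markers summed to 529 to 1140 CPM in the fresh and 1300 to 2320 CPM in the preconditioned libraries, and COL1A1 was the 1 marker that passed, a call lost without fresh replicate 2 or preconditioned replicate 2 (adjusted p up to 0.069 from edgeR). COL1A1 had 56.8, 109 and 108 CPM in the fresh libraries and 537, 693 and 505 CPM in the preconditioned libraries, whereas the groups overlapped for the other 9 markers, and DCN, KERA, THY1 and PDGFRB had negative log2 fold changes. The median log2 ratio of this list to the fresh mean was −0.39, 1.22 and 0.12 in the 3 preconditioned libraries. The 7 leukocyte markers summed to 98.7 to 133 CPM in the fresh and 123 to 316 CPM in the preconditioned libraries, of which CD68 made up most, and PTPRC, which defines leukocytes, was at 0.197 to 1.5 CPM. The 5 vascular endothelium markers summed to 2.67 to 3.13 CPM in the fresh and 1.06 to 13 CPM in the preconditioned libraries, the 5 melanocyte markers to 0.348 to 0.41 CPM in the fresh and 0.517 to 2.7 CPM in the preconditioned libraries, and the 4 conjunctival markers in the table to 2650 to 4690 CPM in the fresh and 1910 to 4660 CPM in the preconditioned libraries. For these 4 the median log2 ratio to the fresh mean was 1.51, −0.14 and −1.21 in preconditioned replicates 1, 2 and 3, and KRT13 and KRT4 were highest in replicate 1, at 61.1 and 44.2 CPM against at most 20.6 and 13.1 CPM in any other library. The 8 limbal and corneal markers in the table summed to 11300 to 14700 CPM in the fresh and 10400 to 15000 CPM in the preconditioned libraries, most of it from KRT5. Among them, TP63 had 246, 226 and 239 CPM in the fresh libraries and 183, 122 and 112 CPM in the preconditioned libraries, with separate groups and a log2 fold change of −0.77 at an adjusted p of 0.059. EPCAM, an epithelial adhesion molecule, was higher in all preconditioned libraries, at 0.50 at an adjusted p of 0.060, and the groups overlapped for the other 6. None of the marker genes in the table was at 0 in all libraries. Their part in the splicing factor results was not tested.

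In the deposited annotation, all 64 genes had a GO term. RNA binding was assigned to 51 of them, splicing via the spliceosome to 44 and nuclear speck to 24, compared with 7.94%, 1.51% and 2.5% of the tested genes with any term. All 64 NCBI gene identifiers were found in a RefSeq gene table of the rabbit assembly mOryCun1.1. The symbol there was the same for 62, the exceptions being HNRNPF, which has no symbol there, and PRPF4B, which is named PRP4K.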

How the data were processed

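RNA-seq was analysed in 6 libraries of rabbit LSCs, 3 fresh and 3 preconditioned, grouped by the sample titles. The authors extracted RNA (TRIzol per the labels, an Omega kit per the methods), aligned reads with hisat2 and counted them with htseq-count, and the deposited counts per gene are not normalized. The genome build, annotation and strand setting are not given in the sources used here. The deposited FPKM values are counts scaled to the summed counts of their library and to 1 gene length, whose definition is not given in the sources used here.

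Counts of all 22190 genes were fitted in R 4.3.3 with edgeR 4.0.16, using filterByExpr (15029 genes left), TMM scaling and the robust quasi-likelihood test with condition as the only factor. Adjustment followed Benjamini and Hochberg and covered all genes tested, and the text gives the splicing factor genes and the named lists. Standard errors come from the F statistic, and 95% intervals use the t distribution with the test's degrees of freedom. CPM are scaled by TMM, log2 ratios to the fresh mean had 2 added as a prior count, and FPKM are as deposited. With 3 libraries per group, an exact permutation test cannot give a p below 0.1. Depth was 31952352 to 34327534 counts per library.

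The genes given with full statistics were those with an adjusted p of at most 0.05, the 2 largest positive and 2 largest negative log2 fold changes and the 2 highest mean FPKM of each subfamily, SRSF1, SRSF2, SRSF3, HNRNPA1, HNRNPA2B1, HNRNPC, HNRNPK, SF3B1, SNRPN and PRPF8 whatever their values, and genes of the pathway lists with an adjusted p of at most 0.05. Others were named after their values were seen. Some genes are not reported here by name but remain in the counts and medians. The members, lists and tests were chosen with earlier results of these data known. Alternatives were the Wald test of DESeq2 1.42.0, scaling by its size factors or by library size alone, no filter or a CPM filter, a block for the replicate number, each library left out in turn, glmTreat, and limma 3.58.1 on log2(FPKM + 1) and log2(FPKM + 0.1), where small values are understated. The scripts were tested on simulated data with known log2 fold changes, 1.5 and 2.5 in size, larger than those of the 64 genes. At both cutoffs, edgeR made 11 false calls among 163 and DESeq2 made 48 among 226. A call by DESeq2 alone is therefore weaker evidence.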

Additional observations from a re-analysis of the deposited data

How the results depend on the processing

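The number of called genes among the 64 depended on the setting. Against 3 lower genes and 1 higher gene at an adjusted p of at most 0.05, DESeq2 gave 10 lower, library size alone 12 lower and 0 higher, a filter at CPM above 1 in 3 libraries 5 lower (3.12% of all genes lower and 4.13% higher), and limma on log2(FPKM + 1) and on log2(FPKM + 0.1) 9 lower and 0 higher each (5.09% and 5.19% of all genes lower, 1.64% and 1.6% higher). With the replicate block, 0 were lower and 0 higher (0.113% and 0.0865% of all genes). Libraries of the same number did not deviate together (correlations of −0.067, −0.073 and −0.11 across genes). Such small correlations cannot show whether these libraries came from the same animal. Leaving out single libraries gave 0 to 26 lower and 0 to 3 higher genes, with the highest numbers without preconditioned replicate 1. Of all genes, 0.0584% to 13.9% were then lower and 0.0324% to 11.2% higher. At both cutoffs, against 0 genes, library size alone gave 2, each limma fit 3 (1.21% and 2.65% of all genes lower, 0.499% and 0.818% higher), no fold change cutoff 4, glmTreat 0, and leaving out single libraries 0 to 5. DESeq2's size factors and no filter on low counts stayed within 1.5 times.

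Subfamily medians kept their negative sign. With library size, log2(FPKM + 1) and log2(FPKM + 0.1) in this order, SRSF moved from −0.31 to −0.47, −0.39 and −0.55, HNRNP from −0.19 to −0.36, −0.37 and −0.37, SF3 from −0.18 to −0.35, −0.36 and −0.37, SNRP from −0.17 to −0.34, −0.34 and −0.34, and PRPF from −0.11 to −0.28, −0.26 and −0.28. When single libraries were left out, the medians ranged over −0.64 to −0.15 for SRSF, −0.22 to −0.12 for HNRNP, −0.34 to −0.089 for SF3, −0.31 to −0.0426 for SNRP and −0.16 to −0.10 for PRPF. Genes near 0 changed sign. Under the same settings in the same order, PRPF18 was at −0.0363, −0.0284 and −0.035, PRPF38B at −0.0775, −0.0728 and −0.0758, SNRPN at −0.12, −0.12 and −0.12, and SRSF5 at −0.0329, −0.0521 and −0.0528. Without single libraries, HNRNPA2B1 ranged over −0.0667 to 0.0738, HNRNPK over −0.16 to 0.0159, SNRPD3 over −0.27 to 0.13, SNRPG over −0.0141 to 0.29 and SRSF5 over −0.0495 to 0.22. Of the values of single named genes under the alternatives, 393 kept their sign and their side of the threshold, 22 newly passed, 31 no longer passed and 19 changed sign. Only genes called in the main setting could lose a call. Of 15 alternative settings, SRSF1, SRSF2 and PRPF8 passed in 8 each and SF3B5 in 5. The cause of these changes was not tested. SRSF12 and PRPF40B had the fewest counts of the 64 genes, so that counting error weighs most there, and isoforms cannot be read from counts per gene.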
